A study of Mus musculus with 6 samples.

Results

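The genes described here are the 4 adult globin genes of the mouse, Hbb-bs, Hbb-bt, Hba-a1 and Hba-a2, and 3 further genes of red cells, Alas2, Slc4a1 and Bpgm. They were chosen by name, 7 of the 20687 gene symbols to which the deposited transcripts were summed, and all 7 were measured and passed the filter on low counts. The series holds 6 samples and asks how whole lung carrying tumours differs from the tumour line itself. The Lung_KP group is 3 samples of whole lung from C57BL/6 mice given 100000 KP cells by tail vein and taken at day 28. Per the labels, each was pooled from 3 mice in a separate experiment. The CellLine_KP group is 3 preparations of the KP cells, a lung tumour line labelled with the same C57BL/6 strain, whose genotype and culture the labels do not give. No lung free of tumour was part of the comparison, and whether the lungs were rinsed of blood or the red cells lysed is not stated in the labels. The cell line samples are labelled as triplicates, with no word on whether these were grown apart, so p-values measure only the spread between these samples, which may be technical.

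Haemoglobin is a tetramer of paired alpha and beta globin chains, each holding a haem group that binds oxygen. Its genes are transcribed in erythroid cells of the marrow and spleen, and since the mature red cell has no nucleus, the globin mRNA in blood is carried over from these precursors, mainly in reticulocytes. Alas2 encodes the erythroid form of aminolevulinate synthase, the first enzyme of haem synthesis. Slc4a1 encodes band 3, the chloride-bicarbonate exchanger that anchors the membrane skeleton. Bpgm encodes bisphosphoglycerate mutase, which makes the phosphate compound that lowers the oxygen affinity of haemoglobin. Alpha and beta globin have also been reported in alveolar type 2 cells and macrophages of rodents, so in whole lung a globin transcript need not come from a red cell.

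The gene copies within each chain are nearly the same in sequence, which bears on every value of a single copy. The open reading frames of Hbb-bs and Hbb-bt are both 444 bases long and differ by 1 base, C417T, counted from 1 at the A of the start codon with Hbb-bs first. Those of Hba-a1 and Hba-a2 are both 429 bases long and differ by 1 base, C381T, with Hba-a1 first. Each differing base is the third of its codon. It is in capitals in the following stretches of 60 bases, read 5′ to 3′ from the GENCODE M21 transcripts (beta from base 385 to 444, alpha from base 352 to 411 of the reading frame).
Hbb-bs: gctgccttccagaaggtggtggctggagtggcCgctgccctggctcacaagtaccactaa
Hbb-bt: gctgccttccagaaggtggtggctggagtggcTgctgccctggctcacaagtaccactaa
Hba-a1: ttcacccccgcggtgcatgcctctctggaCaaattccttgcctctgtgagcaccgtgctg
Hba-a2: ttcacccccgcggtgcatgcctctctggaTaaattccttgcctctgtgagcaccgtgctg
The untranslated ends differ more. Of the 31-base windows of the main transcript, 66.9% of those of Hbb-bs occurred in Hbb-bt and 59.4% the other way, and 71.3% of those of Hba-a1 occurred in Hba-a2 and 91.0% the other way. The summed values of Hbb-bs with Hbb-bt and of Hba-a1 with Hba-a2 do not depend on how the quantification split shared reads, and they are given beside the single copies.

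The promoter windows show which of these genes share short motifs. RefSeq promoter windows on GRCm38.p6 matched 6 of the 7 genes by symbol, and the 120 bases before each start are printed 5′ to 3′. Capitals mark the letters CACCC, a box bound by Krüppel-like factors, the letters CCAAT of the box of that name, the letters GATAA, bound by factors of the GATA family, and the TATA-like letters ATATAA. Each was searched on both strands, and matches of different motifs did not overlap in these windows.
Hbb-bs (chr7:103827929-103828048, minus strand): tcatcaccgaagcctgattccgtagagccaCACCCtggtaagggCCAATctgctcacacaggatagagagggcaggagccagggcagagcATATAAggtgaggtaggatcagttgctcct
Hbb-bt (chr7:103813924-103814043, minus strand): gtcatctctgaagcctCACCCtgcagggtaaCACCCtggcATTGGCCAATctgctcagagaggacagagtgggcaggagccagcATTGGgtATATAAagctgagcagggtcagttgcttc
Hba-a1 (chr11:32283552-32283671, plus strand): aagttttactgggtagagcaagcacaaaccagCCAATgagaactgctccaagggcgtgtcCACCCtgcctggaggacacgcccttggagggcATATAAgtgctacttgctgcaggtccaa
Alas2 (chrX:150547297-150547416, plus strand): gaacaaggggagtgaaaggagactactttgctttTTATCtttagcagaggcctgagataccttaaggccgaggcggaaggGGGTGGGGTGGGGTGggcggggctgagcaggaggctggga
Bpgm (chr6:34476236-34476355, plus strand): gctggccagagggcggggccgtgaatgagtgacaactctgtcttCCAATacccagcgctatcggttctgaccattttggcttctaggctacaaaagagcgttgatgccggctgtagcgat
All 4 globin windows held the CACCC letters, found in 31.7% of all 32851 promoter windows of the same length. They also all held the CCAAT letters, found in 21.3% of windows, and the ATATAA letters, found in 4.5%. The order differed between the chains. Reading towards the start, CACCC came before CCAAT in both beta windows and after it in both alpha windows. The Hbb-bt window held further copies of both. The Alas2 window held 3 adjacent copies of the CACCC letters and 1 of the GATAA letters, both on the other strand, and the GATAA letters were found in 10.5% of windows. The Bpgm window held the CCAAT letters and none of the others. The window of Hba-a2 is not printed because it matched that of Hba-a1 at all 297 bases compared, with an offset of 3 bases between the annotated starts.

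Estimated counts summed to between 17786758 and 22862396 per sample, and 0 counts allow up to 3, which came to between 0.131 and 0.169 counts-per-million (CPM) depending on the sample. Over all 15212 genes tested by the edgeR quasi-likelihood test, 31.3% were higher and 17.5% lower in lung at an adjusted p below 0.05, so 48.8% were called in either direction. With scaling to total counts and no TMM factors, 5210 were higher and 1728 lower, against 4758 and 2664. Surfactant genes checked the lung label, with Sftpc at 8370 to 16000 CPM in lung, against at most 0.0527 CPM in the cell line, and Hmga2, an oncofetal gene, checked the line, at 19.4 to 32.6 CPM in lung, against 631 to 1050 CPM in the line. Lung replicate 2 stood apart by transcript length and by overall correlation with its group (0.933 and 0.901, against 0.973 between the others). Cell line replicate 1 also stood apart by correlation with its group (0.960 and 0.958, against 0.984 between the others). Several results that move without either sample are marked so. Whole lung is a mixture, and fewer cells of a type and less RNA per cell cannot be told apart.

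Beta globin was far higher in lung than in the cell line, in every lung sample. Hbb-bs, which makes most of the adult beta chain, stood at 234, 999 and 451 CPM in lung replicates 1, 2 and 3, against 7.56, 7.55 and 4.21 CPM in cell line replicates 1, 2 and 3. The lowest lung sample was 31 times the highest cell line sample. The log2 fold change was 6.44 (SE 0.65, edgeR adjusted p = 0.000129), and 5.68 without lung replicate 2. Hbb-bt, the minor adult beta gene, stood at 44.0, 173 and 83.7 CPM in lung, against 3.64, 4.32 and 2.79 CPM in the line. Its groups did not overlap either, and its log2 fold change was smaller, 4.81 (SE 0.55, edgeR adjusted p = 0.000227), with 4.10 without lung replicate 2. Summed over both copies, beta globin averaged 662 ± 460 CPM in lung, against 10 ± 2.63 CPM in the cell line (SD, n = 3 each), 66.0 times as much in lung (log2 fold change 6.04, SE 0.63, edgeR adjusted p = 0.000146).

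Alpha globin was higher in lung by a similar factor. Hba-a2 stood at 118, 468 and 295 CPM in lung replicates 1, 2 and 3 and at 3.83, 6.91 and 3.32 CPM in the cell line replicates, with a log2 fold change of 5.97 (SE 0.62, edgeR adjusted p = 0.000146). Hba-a1 stood at 93.8, 397 and 247 CPM in lung, against 2.43, 0 and 0.896 CPM in the line. Replicate 1 was the lowest and replicate 2 the highest lung sample for all 4 globin genes. The log2 fold change of Hba-a1, 7.75 (SE 1.14, edgeR adjusted p = 0.000813), is the least settled of the 7 because it rests on 52, 0 and 17 counts in the cell line, and it was 9.03 without cell line replicate 1, 7.12 without cell line replicate 2 and 7.16 without lung replicate 2. The summed alpha genes avoid that split and stood at 540 ± 327 CPM in lung, against 5.79 ± 1.41 CPM in the cell line (SD, n = 3 each), 93.1 times as much in lung (log2 fold change 6.54, SE 0.61, edgeR adjusted p = 9e-05).

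**Figure D1:**
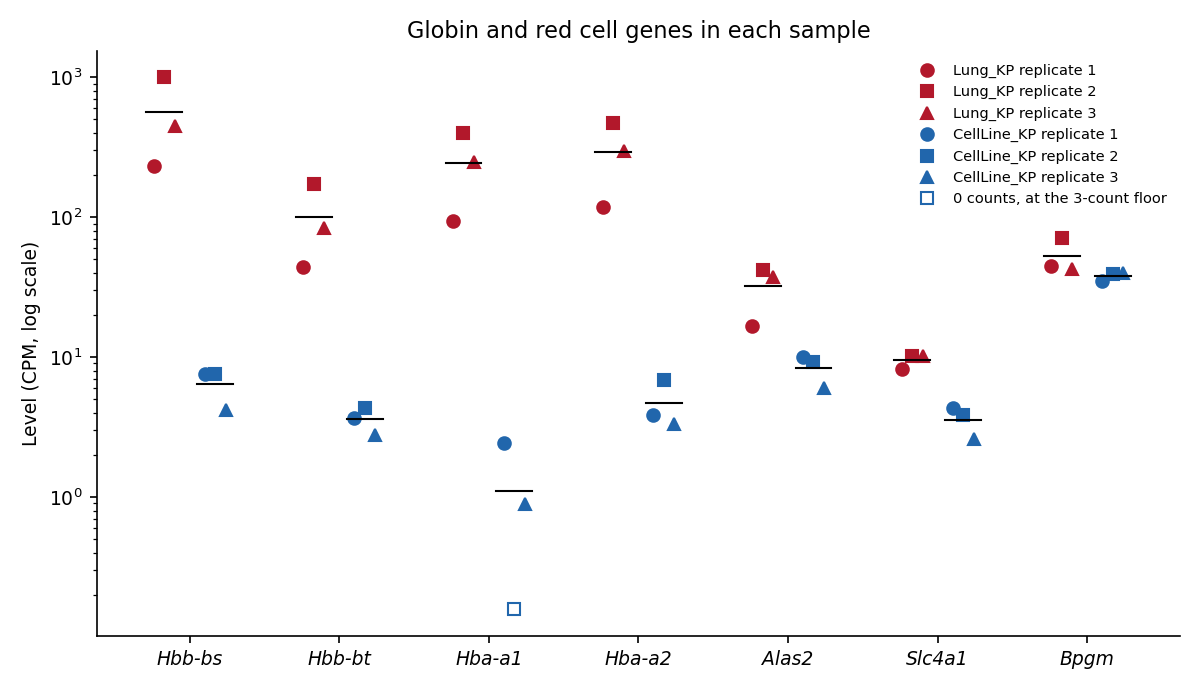
Level of each gene in CPM (log axis) in every sample, with Lung_KP left of CellLine_KP, 1 symbol per replicate and a bar at the mean of 3; the open square is Hba-a1 at 0 counts in cell line replicate 2, drawn at the level 3 counts would give. The globin genes lie far apart between groups, from 44.0 to 999 CPM in lung, against at most 7.56 CPM in the cell line, while Bpgm lies at 42.4 to 70.6 CPM in lung, against 34.9 to 40.0 CPM in the line.

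In the makeup of the globin counts, the lung and cell line samples did not overlap. Hbb-bt took 15.8%, 14.8% and 15.7% of the beta counts in lung replicates 1, 2 and 3, against 32.3%, 36.6% and 39.7% in the cell line replicates. The shares averaged 15.4 ± 0.549% in lung and 36.2 ± 3.70% in the cell line (SD, n = 3 each; two-sided exact permutation p = 0.1, the lowest possible with 3 samples a group). The 95% exact binomial intervals, which cover counting error alone, reached no higher than 16.7% in lung and no lower than 26.6% in the cell line. Alpha globin took 43.2%, 42.5% and 50.4% of all globin counts in lung and 35.8%, 36.9% and 37.6% in the cell line (exact permutation p = 0.1). The intervals for alpha overlapped between groups, at 42.0% or more in lung and up to 44.4% in the cell line.

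The split between the alpha copies was alike in the lung samples and uneven among those of the line. Hba-a1 took 44.4%, 45.9% and 45.6% of the alpha counts in lung, but 39.0%, 0% and 21.4% in cell line replicates 1, 2 and 3, where alpha counts numbered 134, 120 and 80. Since both copies share most of their sequence, these are shares as assigned by the quantification.

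**Figure D2:**
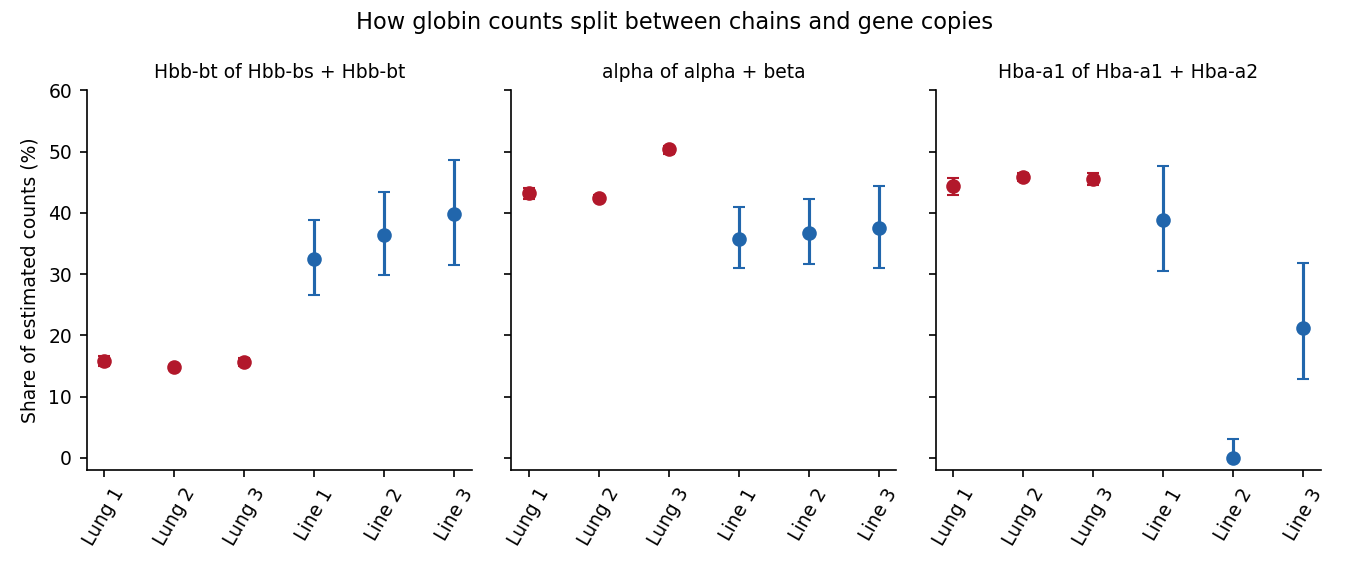
Share of estimated counts (%) taken by Hbb-bt among beta globin, by alpha among all globin and by Hba-a1 among alpha globin, for the 3 Lung_KP samples (red) and the 3 CellLine_KP samples (blue), with 95% exact binomial intervals for counting error. The Hbb-bt share is 14.8 to 15.8% in lung and 32.5 to 39.8% in the cell line from whole counts, and the Hba-a1 share is 0% in cell line replicate 2.

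Alas2 and Slc4a1 were higher in lung by much less than the globins. Alas2 stood at 16.8, 42.1 and 37.1 CPM in lung replicates 1, 2 and 3 and at 9.94, 9.22 and 6.01 CPM in the cell line replicates (log2 fold change 1.93, SE 0.40, edgeR adjusted p = 0.00443). Slc4a1 stood at 8.27, 10.1 and 10.1 CPM in lung, against 4.29, 3.86 and 2.58 CPM in the line (log2 change 1.41, SE 0.32, edgeR adjusted p = 0.00718). The lowest lung sample was 1.69 times the highest cell line sample for Alas2 and 1.93 times for Slc4a1. Against a minimum of 2-fold, the Slc4a1 call was lost (glmTreat adjusted p = 0.117) while those of Alas2 and the globins held.

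Bpgm did not pass the test. It stood at 44.8, 70.6 and 42.4 CPM in lung, against 34.9, 39.1 and 40.0 CPM in the line, with a log2 fold change of 0.47 (SE 0.27, edgeR adjusted p = 0.185). The groups did not overlap, and the lowest lung sample was 1.06 times the highest of the cell line, and the log2 fold change was 0.14 without lung replicate 2. In all, 6 of the 7 genes were higher in lung, against 31.3% of all genes tested, and the groups of all 7 did not overlap, against 35.6% of all genes with every lung sample above every cell line sample. By edgeR 0 were lower (0 also at an unadjusted p under 0.05, by DESeq2 and by limma-voom). The median log2 fold change of the 7 was 4.81, against 0.08 over all genes tested. The globin copies of each chain share reads, so the 7 are not separate observations. With the copies of each chain summed, 4 were higher (beta, alpha, Alas2 and Slc4a1) and Bpgm again did not pass.

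Per unit of transcript length, the order of the genes differed between the groups. In TPM, the transcript share per unit of length computed from annotated lengths, lung held Hbb-bs at 1520 ± 764, Hba-a2 at 921 ± 426, Hba-a1 at 611 ± 295, Hbb-bt at 244 ± 114, Bpgm at 42.9 ± 2.81, Alas2 at 28.8 ± 10.9 and Slc4a1 at 3.86 ± 0.755 TPM (SD, n = 3). The ranges of neighbouring globin genes overlapped, yet their order was the same within each of the 3 lung samples, and Bpgm, Alas2 and Slc4a1 did not overlap each other. In the cell line Bpgm came first at 31.4 ± 0.799 TPM, ahead of Hbb-bs at 18.3 ± 5.53, Hba-a2 at 15.0 ± 6.25, Hbb-bt at 9.06 ± 1.99, Alas2 at 7.68 ± 2.01, Hba-a1 at 2.85 ± 3.17 and Slc4a1 at 1.4 ± 0.358 TPM. Of these 7, Bpgm stood clear of the next gene in range, and each of the others overlapped its neighbour in the order.

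In the ratio of beta globin to the erythroid haem enzyme the groups did not overlap. Hbb-bs exceeded Alas2 in TPM by 44.2, 75.2 and 38.8 times in lung replicates 1, 2 and 3, and by 2.37, 2.50 and 2.21 times in the cell line replicates. Within the cell line this ratio was nearly constant although both genes were lowest in replicate 3.

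The main transcript carried most of each gene's counts. The longest coding transcript held at least 99.87% of Hbb-bs in every sample, and 96.60% to 99.92% of Bpgm. Alas2 used a second coding transcript, 1892 bases long against 2037 bases for the main one. It took 7.60%, 28.88% and 21.42% of Alas2 in lung replicates 1, 2 and 3 and 12.77%, 47.52% and 38.47% in the cell line replicates. The groups overlapped in this share.

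The high globin levels of lung replicate 2 were of the size that its short transcripts showed in general. In that sample the log2 level minus the mean of the other lung samples was 1.62 for Hbb-bs, 1.51 for Hbb-bt, 1.38 for Hba-a1 and 1.33 for Hba-a2, whose mean transcript lengths were 554 to 703 bases. For the 531 tested genes of 500 to 800 bases the median was 1.33, with quartiles of 1.02 and 1.61. Hbb-bs was thus at the upper quartile of its length class and the other globin genes inside it. The longer genes lay above their classes. Alas2 deviated by 0.75 and Bpgm by 0.70 where the median for 1500 to 2500 bases was 0.18, and Slc4a1 by 0.14 where that for 4000 bases or more was -0.98. The part of transcript length in the globin levels of that sample was not tested, and without it the globin log2 fold changes remained between 4.10 and 7.16.

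**Figure D3:**
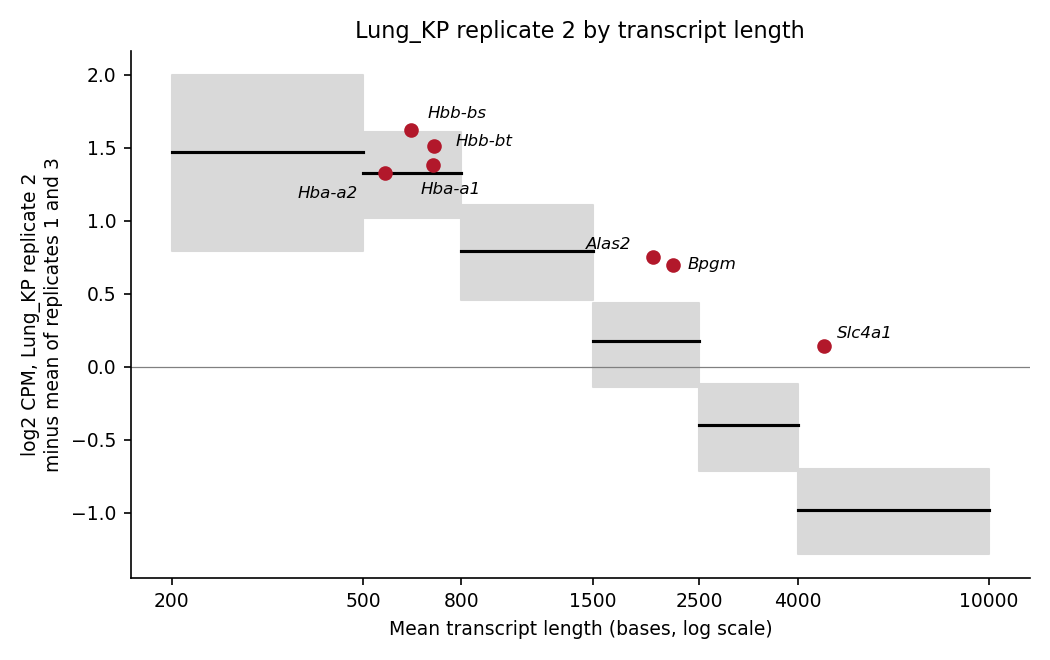
Log2 CPM of Lung_KP replicate 2 minus the mean of Lung_KP replicates 1 and 3 (vertical axis) against mean transcript length in bases (log axis). Black lines and grey boxes are the median and quartiles of all tested genes in 6 length classes, the outer ones drawn to the ends of the axis, and red points are the 7 genes. The globin genes sit at 1.33 to 1.62 in a class with a median of 1.33, and Alas2, Bpgm and Slc4a1 sit above their class medians.

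The summed globins, Alas2 and Slc4a1 were lower in cell line replicate 3 than in replicate 2, as were several lists of markers of other cells. The cell line replicates held 374, 326 and 213 globin counts, all above the floor of 3 counts. Between replicates 3 and 2, the closest pair, the 4 globin genes had a CPM ratio (replicate 3 over replicate 2) of 0.598 (95% exact interval for counting error, 0.5 to 0.712), Alas2 of 0.652 (0.508 to 0.834) and Slc4a1 of 0.669 (0.453 to 0.981). Within the alpha pair, Hba-a2 had a ratio of 0.48 (0.348 to 0.657), while Hba-a1 had 17 counts in replicate 3 and 0 in replicate 2. The ratio was 0.581 (0.559 to 0.603) for the summed counts of 12 B and plasma cell markers and 0.639 (0.556 to 0.733) for 13 T cell markers. It was 0.699 (0.537 to 0.91) for neutrophil, 0.779 (0.685 to 0.885) for endothelial and 0.904 (0.867 to 0.942) for macrophage markers, so that intervals of the red cell genes overlapped those of several cell types. Platelet and megakaryocyte markers had a ratio of 0.955 (0.911 to 1.0), in a list that includes Selp, a gene higher in the line. Bpgm had a ratio of 1.02 (0.922 to 1.14), next to 1.02 (1.01 to 1.04) for 10 genes of the tumour line. All 12 B and plasma cell markers were present in the cell line samples, and they summed to 716, 1570 and 877 CPM in the lung replicates, against 438, 411 and 239 CPM in the cell line replicates. T cell markers summed to 256 to 323 CPM in lung, against 18.5 to 31.1 CPM in the line. The 10 alveolar type 2 markers summed to 15700 to 22200 CPM in lung, against 153 to 155 CPM in the line. In the cell line samples Sftpa1, Sftpd and Slc34a2 had 0 counts and Sftpb, Sftpc and Lamp3 at most 1, while Abca3 stood at 79.7 to 86.6 CPM, Etv5 at 62.0 to 68.3 CPM, Napsa at 2.58 to 6.62 CPM and Lyz1 at 0.346 to 0.632 CPM. Whether the globin counts of the cell line samples came from the KP cells or from other cells was not tested.

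**Figure D4:**
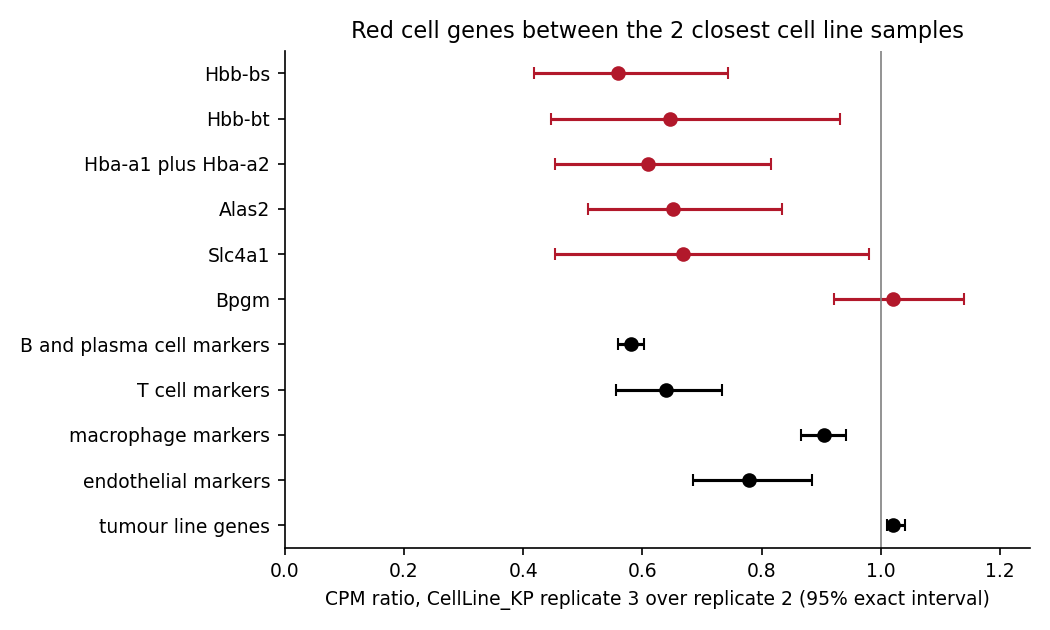
Ratio of CPM in CellLine_KP replicate 3 to replicate 2 with 95% exact intervals that cover counting error alone, for the globin and red cell genes (red) and for summed marker lists (black). Hbb-bs, Hbb-bt, the summed alpha pair, Alas2 and Slc4a1 lie between 0.559 and 0.669, the B and T cell lists at 0.581 and 0.639, and Bpgm and the tumour line genes at 1.02.

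Genes with the most similar profile over the 6 samples differed between Hbb-bs and Alas2. Likeness was the root mean square difference of log2 CPM (prior count 0.5) after centring each gene, over 13940 candidate genes. Candidates were tested genes outside the 7 with a mean of 1 CPM or more in lung, leaving out predicted gene models. No such minimum was set for the cell line. For Alas2 the nearest were Iglv1 (0.14), Igkv1-117 (0.17), Iglc3 (0.19), Fcmr (0.21) and Cxcr5 (0.22), of which Iglv1, Igkv1-117 and Iglc3 are immunoglobulin light chain genes. Cxcr5, a chemokine receptor of B cells, stood at 7.75, 18.4 and 14 CPM in lung, against 5.23, 5.13 and 3.48 CPM in the line. For Hbb-bs the nearest were Mrap (0.31), Gal (0.34), Tekt5 (0.35), Efcab10 (0.37) and Tmem213 (0.38), all at 0 counts in the cell line and below 5 CPM in lung, so that their likeness rests on few counts. By the same measure Hba-a2 lay at 0.36 and Hbb-bt at 0.83 from Hbb-bs, and Slc4a1 lay at 0.38 from Alas2.

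Other genes of the red cell were less uniform than the globins. The 8 lists of red cell and haem genes also hold 3 tested globin genes that are not red cell genes, all higher. They hold as well 18 genes of haem and haemoglobin clearance, of which 8 were higher and 1 lower. Over these 8 lists together, 44 of 121 genes tested were higher in lung, 26 were lower and 51 did not pass the test. The median log2 fold change was 0.49. Both shares were somewhat above those of all genes tested, of which 31.3% were higher and 17.5% lower. Without cell line replicate 2 or replicate 3, 29 were higher in each case.

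Other globins of the red cell lineage, where measured, were at 0 or at a few counts. Hbb-y, the embryonic beta-like gene, had 0 counts in all 6 samples, and Hbq1a and Hbq1b, the theta globin genes, reached at most 0.221 CPM in lung, against 0.115 CPM in the line. The other globins of that list, which are not red cell genes, were all higher in lung, with Cygb (cytoglobin) at 43.1 to 46.3 CPM in lung, against 0.369 to 0.634 CPM in the line, and Mb (myoglobin) at 5.55 to 12 CPM in lung, against at most 0.0467 CPM in the cell line (edgeR adjusted p = 1.4e-05 for Cygb and 9.67e-05 for Mb, whose fold change moved by over 1.5 times without cell line replicate 1). Ngb (neuroglobin) stood at 1.09 to 1.36 CPM in lung, against 0 counts in the cell line.

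Of 18 genes of haem synthesis beyond Alas2, 3 were higher, 3 were lower and 12 did not pass the threshold, against 31.3% higher and 17.5% lower over all genes. Alas1, the form of the first enzyme found in all tissues, stood at 127, 126 and 146 CPM in lung, against 55.8, 39.8 and 41.9 CPM in the line (log2 change 1.53, SE 0.25, edgeR adjusted p = 0.00117). Fech, which inserts iron into the ring, stood at 52.3 to 57.8 CPM in lung, against 41.7 to 43.0 CPM in the line and did not pass (edgeR adjusted p = 0.161). Slc25a37, the mitochondrial iron importer mitoferrin 1, and Cpox, a late enzyme of the pathway, were lower in lung (log2 fold change -1.0 and -1.46, edgeR adjusted p = 0.0289 and 0.0314). Both of these calls were lost without cell line replicate 1 and without lung replicate 1, and that of Cpox also without lung replicate 2. Leaving out lung replicate 1 gave 0 lower genes of this list, lung replicate 2 gave 6 and cell line replicate 1 gave 1, and without cell line replicate 2 the list had 1 higher.

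Erythroid transcription factors were mostly higher in lung, 8 of 12, with 1 lower, against 31.3% higher and 17.5% lower over all genes, and their median log2 fold change was 3.32. Lmo2, a partner of the factors that open erythroid and endothelial genes, stood at 38.3 to 57.8 CPM in lung, against 1.38 to 2.43 CPM in the line (log2 change 4.68, SE 0.35, edgeR adjusted p = 3.94e-05). Nfe2, a factor of erythroid and platelet precursors, stood at 5.87 to 6.60 CPM in lung, against 0.105 to 0.280 CPM in the line (edgeR adjusted p = 8.63e-05). Tal1, which also acts in endothelium, stood at 9.38 to 16.7 CPM in lung, against 0 to 0.346 CPM in the line, a fold that moved by over 1.5 times without cell line replicate 2 or 3. Endothelial markers summed to 2060 to 3860 CPM in lung, against 23.5 to 42.4 CPM in the line, and their part in the levels of Lmo2 and Tal1 was not tested. Both Gata1 and Klf1 were low, at most 1.99 CPM in lung and 0.700 CPM in the line. Gata1 stood at 0.759, 1.99 and 0.831 CPM in lung, against 0.0933, 0.288 and 0 CPM in the line (log2 change 3.22, SE 0.89, edgeR adjusted p = 0.018), a call lost without lung replicate 2 or cell line replicate 1. Klf1, the activator of adult beta globin, stood at 0.200, 0.796 and 0.779 CPM in lung, against 0.700, 0.403 and 0.527 CPM in the line, with overlapping groups (edgeR adjusted p = 0.907). Zfpm1, the GATA cofactor FOG1, was the factor lower in lung, at 25.1 to 28.9 CPM in lung, against 70.7 to 94.0 CPM in the line (edgeR adjusted p = 0.000672).

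Of 23 membrane and skeleton genes 8 were higher, 7 were lower and 8 did not pass the threshold, against 31.3% higher and 17.5% lower over all genes. The higher count was 5 without lung replicate 1 or cell line replicate 2, and dropping cell line replicate 3 left 4. Epb42, protein 4.2 of the skeleton, stood at 1.30 to 1.59 CPM in lung, against 0 to 0.691 CPM in the line and did not pass (edgeR adjusted p = 0.104). Rhag, of the Rh complex, was too low to be tested, at 0.208 to 0.486 CPM in lung, against 0 to 0.187 CPM in the line. Ank1, the ankyrin that ties band 3 to spectrin, was lower in lung, at 1.87 to 2.52 CPM in lung, against 29.1 to 43.5 CPM in the line (log2 change -4.04, SE 0.30, edgeR adjusted p = 3.86e-05), as was Add2, the beta adducin of the skeleton (log2 fold change -7.08). Add2 was also among the listed genes of the tumour line. The highest of the list in lung was Aqp1, the water channel of red cells and endothelium, at 358 to 567 CPM in lung, against 5.37 to 24.0 CPM in the line (edgeR adjusted p = 0.000352).

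Of 21 red cell enzymes 6 were higher and 10 lower in lung, against 31.3% and 17.5% of all genes. Car2, a carbonic anhydrase of red cells and many other cells, stood at 69.7 to 87.0 CPM in lung, against 6.72 to 16.0 CPM in the line (edgeR adjusted p = 0.000574), and Gpx1, a glutathione peroxidase, at 329 to 890 CPM in lung, against 136 to 179 CPM in the line (log2 change 1.71, edgeR adjusted p = 0.0105, moved by more than 1.5 times without lung replicate 2). Car1, the isozyme most typical of red cells, stood at 0.675 to 2.30 CPM in lung, against 0.263 to 0.560 CPM in the line (edgeR adjusted p = 0.066). Its log2 fold change was 1.59, and 0.83 without lung replicate 2. The glycolytic enzymes of the list went both ways. Aldoa was lower (352 to 559 CPM in lung, 1030 to 1360 CPM in the cell line), as were Pgk1, Tpi1, Pgam1 and Hk1. Pklr, which encodes the red cell and liver pyruvate kinase, was higher, at 14.1 to 24.8 CPM in lung, against 1.77 to 6.43 CPM in the line (edgeR adjusted p = 0.00656), as was Pgam2, on 0 to 3 counts in the cell line samples.

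Late erythroid genes were called at shares near those of all genes, while 8 of 12 genes of iron uptake and signalling did not pass. Of 15 late genes tested, 5 were higher and 3 lower, against 31.3% and 17.5% of all genes, and 2 were higher without cell line replicate 2 or 3. Ube2l6 stood at 59.9 to 112 CPM in lung, against 8.32 to 9.43 CPM in the line (edgeR adjusted p = 0.000135), while Hemgn, a nuclear protein of erythroid cells, stood at 0.973 to 1.14 CPM in lung, against 0.158 to 0.327 CPM in the line (edgeR adjusted p = 0.0113, lost without cell line replicate 2 or 3). Of those 12 genes 3 were higher and 1 lower, against 31.3% and 17.5% of all genes. The list had 1 higher without cell line replicate 2 and 2 lower without lung replicate 2. Tfrc, the transferrin receptor that erythroblasts and dividing cells use to take up iron, stood at 48.1 to 119 CPM in lung, against 343 to 590 CPM in the line (log2 change -2.41, SE 0.43, edgeR adjusted p = 0.00206). Kit, the stem cell factor receptor, stood at 32.9 to 146 CPM in lung, against 0.738 to 1.21 CPM in the line (edgeR adjusted p = 0.000105).

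**Figure D5:**
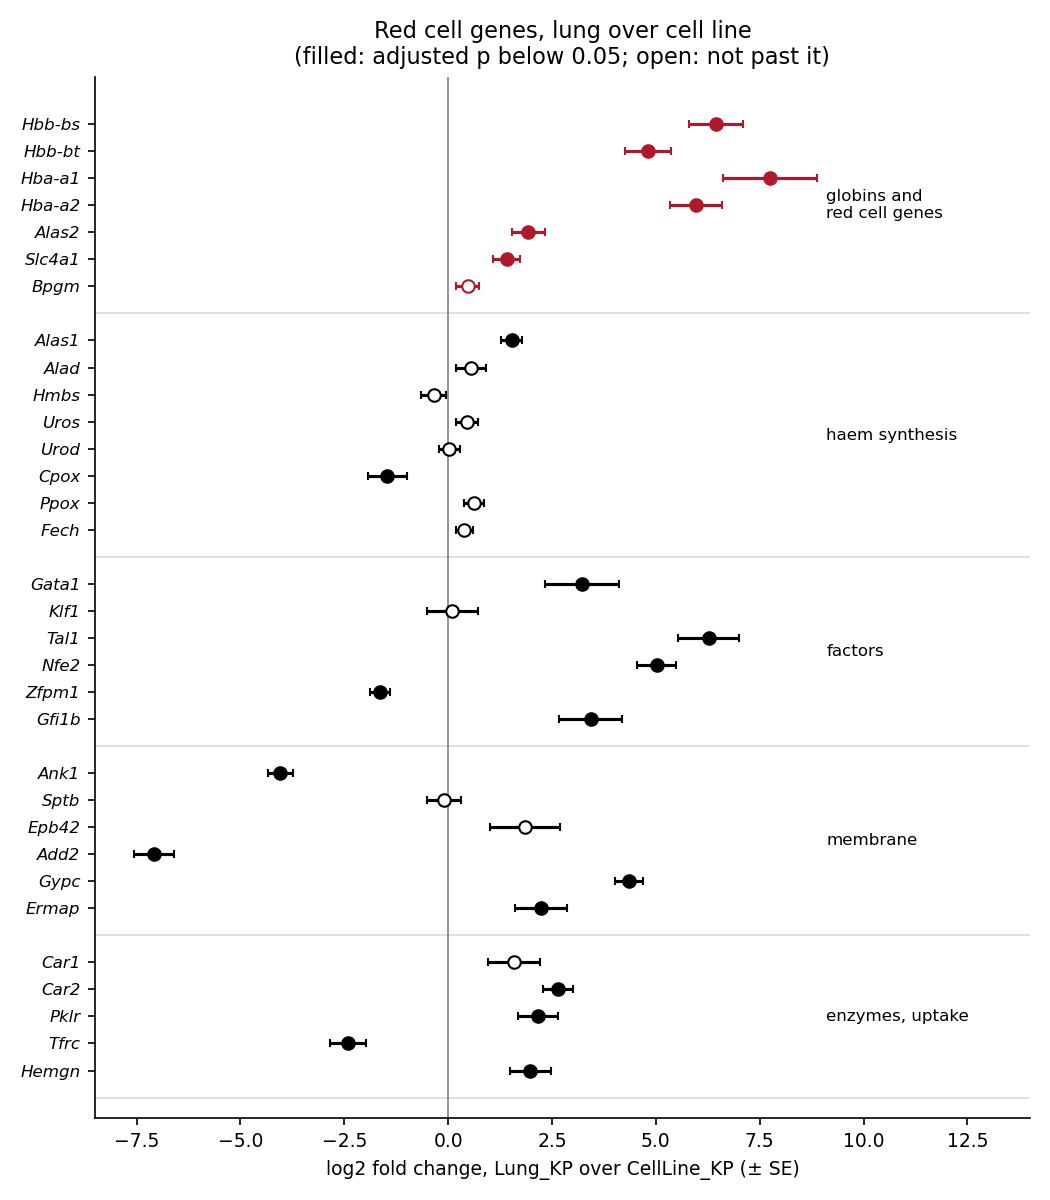
Log2 fold change of lung over cell line with its standard error for the 7 genes (red) and for a selection from the red cell lists (black), grouped by role. Filled points passed an adjusted p of 0.05 and open points did not. The globins lie between 4.81 and 7.75, and the selected other genes spread on both sides of 0, from -7.08 for Add2 to 6.27 for Tal1. Some genes of the lists that are not drawn lay above Tal1, such as Kit at 6.68 and Hp at 8.69.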

How the data were processed

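Estimated counts for each transcript were deposited by the authors in a table of 6 sample columns. Per the submitters' processing notes, the tools were Salmon 1.4.0, FastQC 0.11.9 and DESeq2 1.32.0 with build GRCm39, and the annotation release was not given in the sources used here. Of 76776 transcripts 76521 matched GENCODE M21, which belongs to another build and gave names, lengths and the reading frames shown, and the other 255 (0.11% to 0.42% of counts) were left out. Sums per gene were rounded and tested with edgeR 4.0.16 (R 4.3.3): filterByExpr by group, TMM scaling, robust quasi-likelihood F test, Benjamini-Hochberg over 15212 genes. The test was tried on simulated data with 100 genes changed 2-fold and 100 changed 4-fold. It recovered 4% of the first and 65% of the second, and 5.5% of its calls were false. A gene that did not pass may therefore still differ. Log2 fold changes are lung over cell line, SE is the fold change over the root of F, and CPM are on TMM-scaled sizes. The alternatives used DESeq2 1.42.0 and limma 3.58.1 among others. TPM are on annotated lengths, since lengths per sample were not used here. The labels' protocols describe collagenase digestion, a stranded mRNA kit and also amplification before hybridization.

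The genes, lists and rules were chosen with earlier results of these data known. All 7 genes are named. From other lists the 2 highest in lung past the threshold, the largest opposite change and defining red cell genes were to be named. Not all are, and others were chosen after their values were seen. Of the lists, 11 genes were not analysed here. Some results of the lists are not reported here.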

Additional observations from a re-analysis of the deposited data

How the results depend on the processing

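Of the 7 genes, the direction stayed the same under all alternatives run. Calls were lost for Hba-a1 with the replicate block (log2 fold change 7.91, adjusted p = 0.092; the cause was not tested) and for Slc4a1 with glmTreat against 2-fold (1.41, adjusted p = 0.117). Hba-a1 could not be tested with 10 or more counts in all 6 samples. Leaving out 1 sample gave 5.68 to 6.81 for Hbb-bs, 4.10 to 5.16 for Hbb-bt, 7.12 to 9.03 for Hba-a1, 5.41 to 6.35 for Hba-a2, 1.63 to 2.24 for Alas2, 1.16 to 1.55 for Slc4a1 and 0.14 to 0.60 for Bpgm, and 6 genes higher each time. Over all genes, leaving out 1 sample gave 4249 to 5190 higher and 1820 to 3773 lower, against 4758 and 2664. Library size alone gave 5210 higher and 1728 lower and moved the median log2 fold change to 0.31, and Bpgm to 0.70. With 10 counts in all samples, 11994 genes were tested, of which 2555 were higher and 1701 lower. The 2-fold minimum gave 703 lower, and 25 higher and 10 lower over the 8 red cell lists. Leaving out 1 sample gave 29 to 47 and 19 to 31 there. Without cell line replicate 1 and lung replicate 2 together 6657 genes were higher and 5425 lower, and 6 of the 7 were higher, as were 6 of the haem synthesis genes, with 7 lower. The globin shares differed by -22.7 to -19.0 points (Hbb-bt) and 6.06 to 10 points (alpha) with 1 sample left out, where the smallest permutation p is 0.2. Same-numbered deviations correlated at -0.03, 0.07 and -0.07. They gave no sign that replicate numbers pair the samples, but with 3 samples a group they cannot exclude it. With the block, 5 of the 7 genes, 4634 genes higher and 2526 lower were called. The cell line split between alpha copies rests on 80 to 134 counts. Its 95% counting intervals for Hba-a1, 30.5% to 47.6%, 0% to 3.03% and 12.9% to 31.8%, do not all overlap, and the cause was not tested.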

Other observations

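Of 18 genes that clear haemoglobin and haem, 8 were higher in lung and 1 was lower, against 31.3% and 17.5% of all genes tested. The higher count was 4 without cell line replicate 2 or 3. Hp encodes haptoglobin, which binds free haemoglobin in plasma and is made in lung as well as in liver. It stood at 421, 596 and 615 CPM in lung, against 2.85, 0.806 and 0.211 CPM in the line (log2 change 8.69, SE 0.89, edgeR adjusted p = 0.000132, moved by more than 1.5 times without cell line replicate 1). Cd163, the macrophage receptor for the haptoglobin complex, stood at 6.55 to 10.7 CPM in lung, against 0.790 to 1.82 CPM in the line (edgeR adjusted p = 0.00111). Slc40a1, the iron exporter ferroportin, was higher in lung (edgeR adjusted p = 0.0139), a call lost without cell line replicate 2 or 3. Hmox1, the inducible haem oxygenase, stood at 47.3, 62.4 and 58.1 CPM in lung, against 747, 44.6 and 41.8 CPM in cell line replicates 1, 2 and 3, and did not pass (edgeR adjusted p = 0.101). Its log2 fold change was -2.31, and 0.36 without cell line replicate 1. Macrophage markers summed to 7460 to 9740 CPM in lung, against 135 to 257 CPM in the line.

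Markers of other blood cells were mostly higher in lung. Of 16 platelet and megakaryocyte markers 14 were higher and 1 lower, against the same shares of all genes, with Ppbp at 19.4 to 22.8 CPM in lung, against 3.58 to 4.90 CPM in the line. Pf4, platelet factor 4, stood at 10.9, 23.3 and 11.2 CPM in lung, against 0.840, 0.691 and 0.580 CPM in the line (edgeR adjusted p = 0.000132). Selp, the P-selectin of platelets and endothelium, went the other way, at 1.99 to 8.31 CPM in lung, against 52.5 to 99.4 CPM in the line (edgeR adjusted p = 0.000725). Of 13 neutrophil markers 12 were higher, against 31.3% of all genes, and S100a9 stood at 57.3, 144 and 52.7 CPM in lung, against 0.933, 0.749 and 0.369 CPM in the line, a fold that moved by more than 1.5 times without lung replicate 2.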
